A study of Homo sapiens with 6 samples.

Results

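The colony-stimulating factor genes CSF1, CSF2 and CSF3, the CSF1 receptor ligand gene IL34 and the interleukin genes IL15, IL7 and IL32 were followed in TNF-α-treated glioblastoma cells. They were chosen by gene name, with earlier results of these data known, and all 7 were found among the 58735 genes of the expression table. The cells were U251, an established human glioblastoma line, and gene expression was measured by poly(A) RNA sequencing. The NC group (3 libraries) received sterile deionized water and the TNF-α group (3 libraries) received recombinant human TNF-α at 10 ng/mL, both for 24 h. The labels describe the 3 replicates of each group as independent, and all came from 1 cell line grown without other cell types, so a level here is that of U251 cells in culture. Levels are given as FPKM, fragments scaled by gene length and library size, a unit that allows genes to be compared with each other.

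Colony-stimulating factors are secreted glycoproteins that control the survival, division and maturation of myeloid cells. CSF1 (M-CSF) and IL34 share the receptor CSF1R, on which microglia and macrophages depend, CSF2 (GM-CSF) signals through CSF2RA with the common chain CSF2RB, and CSF3 (G-CSF) signals through CSF3R on neutrophils and their precursors. IL15 and IL7 sustain lymphocytes through receptors that share the chain IL2RG, and IL15 is presented to neighbouring cells on IL15RA. IL32 is a cytokine gene absent from rodents, for whose product no single receptor has been settled. In many cell types TNF-α acts on genes of this kind through NF-kB, and the mRNAs of CSF2 and CSF3 are textbook examples of transcripts made short-lived by AU-rich elements in the 3′ UTR.

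The promoters of CSF2 and IL32 are shown because these were the members with the largest fold changes and because RefSeq promoter windows (250 bases before to 50 after a transcription start, GRCh38.p14) were held for them, 1 for CSF2 and 2 for IL32, that is for 2 of the 7 members. Capitals mark GGNNNTTCC, a short form of the NF-kB site, searched on both strands. The CSF2 stretch covers chr5:132073539-132073788 on the plus strand and ends at the base before the start. The IL32 stretch covers chr16:3065153-3065296 on the plus strand, from 250 to 107 bases before the first of the 2 starts, and ends where the annotated exons of the gene begin.
CSF2: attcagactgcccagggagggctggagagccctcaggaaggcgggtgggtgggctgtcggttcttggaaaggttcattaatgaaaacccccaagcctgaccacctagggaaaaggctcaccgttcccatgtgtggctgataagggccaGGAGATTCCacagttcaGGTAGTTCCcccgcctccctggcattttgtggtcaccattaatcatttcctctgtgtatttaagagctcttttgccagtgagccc
IL32: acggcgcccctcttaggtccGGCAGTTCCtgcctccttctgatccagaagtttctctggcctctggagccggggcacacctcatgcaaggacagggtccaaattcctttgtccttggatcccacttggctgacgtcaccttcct

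The CSF2 window held 2 matches to GGNNNTTCC, GGAGATTCC from position -102 and GGTAGTTCC from position -85, counted from the start. The first IL32 window held 3, GGCAGTTCC from -230, GGAGTTTCC from -98 and GGACTTTCC from -68, the last 2 of them inside the annotated gene. The second IL32 window held 0. Of all 35116 promoter windows of the same length, 20.1% held at least 1 match. The looser form GGNNNNNCC, which takes in every GGNNNTTCC match, was found 3 times for CSF2 and 5 and 2 times in the IL32 windows, but also in 78.0% of all windows. No match to TGANTCA (AP-1), TTCNNTTTC (interferon response) or TATAAA (a core promoter element) was found in any of the 3 windows, against 7.71%, 8.11% and 11.5% of all windows. These matches describe letters in a window, and binding was not measured.

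The 3′ UTR was described by ATTTA, the pentamer core of AU-rich elements, in the coding transcript with the longest reading frame of each gene (GENCODE 29). CSF2 held 8 pentamers in a 3′ UTR of 318 bases, or 25.2 per kb, a density reached by 0.175% of 18831 protein-coding genes, whose median was 1.34 per kb. CSF3 held 7 in 854 bases, or 8.20 per kb, a density reached by 2.80% of genes. The 30 bases of each 3′ UTR with most pentamers are printed with the pentamers in capitals, 5 that overlap by 1 base in CSF2 and 3 in CSF3.
CSF2 3′ UTR: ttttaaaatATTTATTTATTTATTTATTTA
CSF3 3′ UTR: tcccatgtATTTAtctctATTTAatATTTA

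CSF1, IL15 and IL7 held 4 ATTTA pentamers each, in 2154, 1139 and 941 bases. IL32 (196 bases) and IL34 (495 bases) held 0, in 3′ UTRs shorter than the median of 807 bases, and 62.8% of all genes held at least 1. Of the members with the highest folds, CSF2 thus had the highest pentamer density of the 7 and IL32 shared the lowest with IL34. Transcript stability was not measured.

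Before the single genes, the levels were set in order. In the NC group CSF1 led with 19.1 ± 0.671 FPKM (mean ± SD, n = 3), far above IL7 (1.01 ± 0.139), IL15 (0.887 ± 0.165) and IL32 (0.712 ± 0.0649). CSF2 (0.155 ± 0.211), IL34 (0.113 ± 0.0528) and CSF3 (0.0884 ± 0.0298) were the lowest, and these 3 overlapped between neighbours, as did IL7 with IL15 and IL15 with IL32. In the TNF-α group CSF1 (46.3 ± 4.15) was followed by IL32 (24.5 ± 13.8) and CSF2 (13.9 ± 4.35), which overlapped with each other. IL15 (1.40 ± 0.417), CSF3 (1.12 ± 0.473), IL7 (0.912 ± 0.366) and IL34 (0.260 ± 0.205) followed, with overlap between IL15 and CSF3 and between CSF3 and IL7. CSF1 was thus the most abundant of the 7 in every library, and CSF2 and IL32 moved from below or near 1 FPKM to the places next to CSF1.

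**Figure D1:**
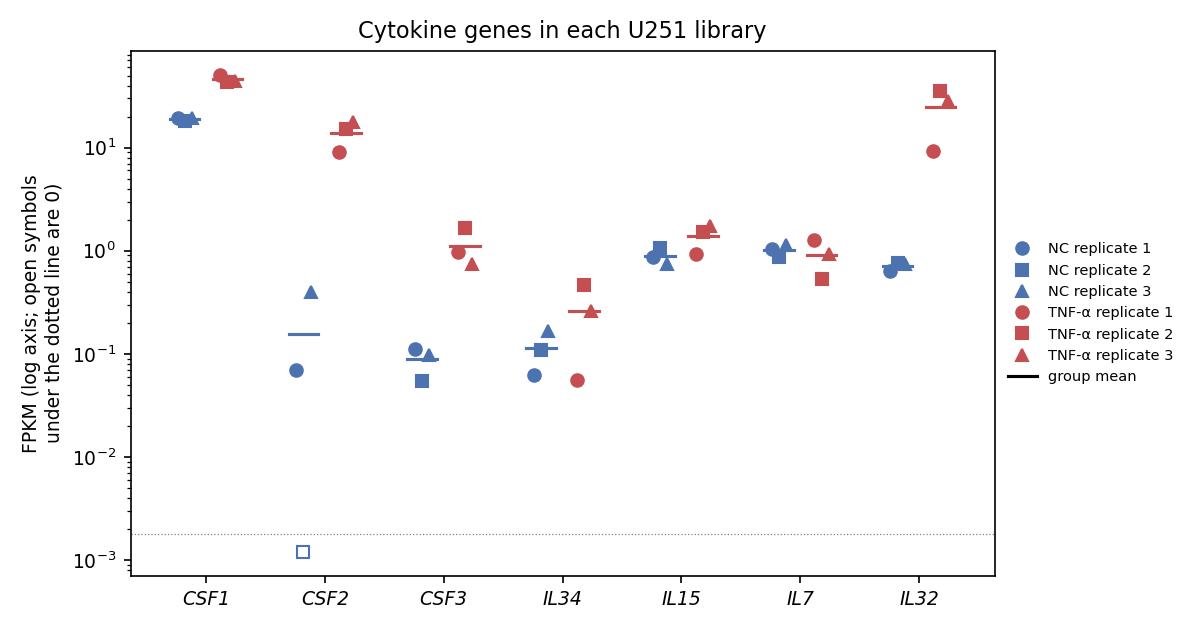
FPKM (log axis) of the 7 genes in each of the 3 NC libraries (blue) and 3 TNF-α libraries (red), with group means as lines and the single value of 0 as an open symbol under the dotted line. The groups were apart for CSF1, CSF2, CSF3 and IL32 and overlapped for IL34, IL15 and IL7.

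The 6 libraries held from 31992167 to 37897044 reads in genes. TNF-α replicates 2 and 3 stood apart from the other 4 libraries, since genes with over 8 kb of exons took 16.6% and 17.9% of their reads, against 28.8% to 29.1% elsewhere. The 7 cytokine genes had between 787 and 7860 exonic bases. With a correction for GC content and length, the log2 fold change of CSF1 went from 1.23 to 0.93. That of CSF2 went from 3.66 to 3.34 and that of IL32 from 3.71 to 3.15. IL15 went from 0.34 to 0.73 and IL7 from -0.09 to -0.08. CSF3 and IL34 were not in that fit, and beyond it the part of this difference in the values was not tested. The response to the added ligand was present in all treated libraries: 8 of 8 NF-kB target genes (NFKBIA, TNFAIP3, NFKB2, RELB, BIRC3, ICAM1, CXCL8 and CCL2) were higher in the TNF-α group, with a median log2 fold change of 3.14. All 8 had an adjusted p under 0.05 by limma, where 0.717% of all genes tested were higher by this rule. The list was chosen with earlier results of these data known, so the count of 8 carries no weight of its own.

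The comparison of the groups used limma on log2(FPKM + 1) over the 12136 genes that reached an FPKM of 1 in 3 libraries or more, and a fold change on this scale understates the change of low genes. CSF1, CSF2, IL32, IL15 and IL7 entered this fit and CSF3 and IL34 did not. CSF2 and IL32 entered it only through the TNF-α libraries, so the number of members called among those fitted carries no weight of its own. With an adjusted p under 0.05, CSF1, CSF2 and IL32 were higher after TNF-α, IL15 and IL7 were not called, and none was lower, where 0.717% of all genes tested were called higher. Every TNF-α library lay above every NC library for 4 of the 7 genes, CSF1, CSF2, CSF3 and IL32, and for 14.8% of all genes tested. These shares are not alike, since the genes tested leave out CSF3 and IL34 and hold CSF2 and IL32 only through the TNF-α libraries. For each of CSF1, CSF2, CSF3 and IL32 the exact two-sided permutation test gave p = 0.1, the smallest that 3 against 3 libraries allow. In cultured cells sequenced in bulk, a higher level in every cell and a larger share of expressing cells cannot be told apart.

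CSF1, on chr1:109910242-109930992 (GRCh38, plus strand), encodes the growth factor of macrophages and microglia. Its level was 19.5, 18.3 and 19.5 FPKM in NC replicates 1 to 3 and 51.1, 43.3 and 44.7 FPKM in TNF-α replicates 1 to 3. On the FPKM scale the groups were far apart and the spread within each was small. Every treated library was between 2.27 and 2.67 times the NC mean. The reads of TNF-α replicates 1 to 3 were 8892, 6080 and 5876, so the closeness of these libraries depends on the FPKM scaling. The library total inside the FPKM was 0.925 of the reads in genes in TNF-α replicate 1. In replicates 2 and 3 it was 0.693 and 0.759. The mean FPKM of CSF1 rose 2.43-fold, a log2 fold change of 1.23 (SE 0.13, adjusted p = 0.0167 by limma). With 3255 to 8892 reads per library, CSF1 was the most deeply measured of the 7. The call was lost when NC replicate 1, 2 or 3 (adjusted p = 0.173, 0.184 and 0.166) or TNF-α replicate 2 or 3 (0.0575 and 0.127) was left out of the limma fit, while the log2 fold change stayed between 1.21 and 1.28. It was also lost with quantile normalization and with a correction for GC content and length (log2 fold changes of 0.93 each), and when FPKM was rescaled to TPM, where the log2 fold change was 0.76 and the median of all genes moved from 0.04 to -0.42. Relative to the median of all genes, CSF1 was higher by 1.19 on the FPKM scale, 1.18 on the TPM scale and 0.93 after quantile normalization. Of its neighbours GSTM5 had 0 reads in every library, and AHCYL1 was 34.1 ± 0.797 FPKM in NC and 26.2 ± 6.06 in TNF-α (n = 3 each) and was not called.

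CSF2, on chr5:132073790-132076170 (GRCh38, plus strand), encodes a factor that drives the maturation and activation of granulocytes and macrophages. Its level was 0.0703, 0 and 0.396 FPKM in NC replicates 1 to 3, from 2, 0 and 10 reads. In TNF-α replicates 1 to 3 it was 9.09, 15.0 and 17.6 FPKM, from 230, 306 and 336 reads. CSF2 was therefore close to the limit of detection without TNF-α, a count of 0 in NC replicate 2 allowing up to 0.116 FPKM (3 reads), and was clearly present in each treated library. The log2 fold change was 3.66 (SE 0.26, adjusted p = 0.00407 by limma). The ratio of the group means was 89.5, which rests on 12 NC reads in all, 10 of them in replicate 3. The call was kept in 20 of 21 alternatives, among them the fit without TNF-α replicate 1, which called 9630 of 12136 genes. It was lost without NC replicate 2 (adjusted p = 0.0504 by limma).

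The genes beside CSF2 held no such difference. IL3, which encodes a cytokine of the same receptor family and lies 10.6 kb upstream, had 0 reads in 5 libraries and 2 reads in TNF-α replicate 2. On the other side P4HA2, a collagen prolyl hydroxylase gene, had 6.91 ± 0.557 FPKM in NC and 9.85 ± 1.42 in TNF-α (n = 3 each), a log2 fold change of 0.45 that was not called (adjusted p = 0.195 by limma).

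CSF3, on chr17:40015361-40017813 (GRCh38, plus strand), encodes the factor that raises neutrophil production. Its level was 0.112, 0.0549 and 0.0982 FPKM in NC replicates 1 to 3 and 0.967, 1.65 and 0.742 FPKM in TNF-α replicates 1 to 3. All treated libraries lay above all NC libraries, at 8.39 to 18.7 times the NC mean, yet at levels well under those of CSF1 and CSF2. The ratio of the means was 12.7, from 20 NC reads and 204 TNF-α reads. CSF3 was under the filter for low values and so did not enter the main limma fit of FPKM. With lower filters its log2 fold change was 0.94 and it was not called by limma. The adjusted p was 0.0946 with FPKM of at least 0.1 and 0.201 with every gene above 0. With limma-voom on the reads of every gene with at least 10 reads in at least 3 libraries, a fit chosen after the data were seen, the log2 fold change was 3.53 (SE 0.59) and the adjusted p of 0.0619 missed the threshold. Its neighbours PSMD3, a proteasome subunit gene, and MED24, a Mediator subunit gene, were not called (log2 fold changes of 0.52 and 0.07).

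IL34, on chr16:70579895-70660682 (GRCh38, plus strand), encodes the other ligand of CSF1R. It had 5, 8 and 12 reads in NC replicates 1 to 3 and 4, 27 and 14 reads in TNF-α replicates 1 to 3, or 0.0620 to 0.167 FPKM and 0.0557 to 0.467 FPKM. The groups overlapped, with the highest value in TNF-α replicate 2 and the lowest in TNF-α replicate 1 (exact permutation p = 0.4). At this depth no difference could be detected. The ligands of CSF1R thus shared no range, CSF1 being at least 18.3 FPKM and IL34 at most 0.467 FPKM in every library. SF3B3, the gene just upstream, was not called (log2 fold change -0.13), and MTSS1L, the gene just downstream, missed the threshold (log2 fold change -0.89, adjusted p = 0.0650 by limma).

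**Figure D2:**
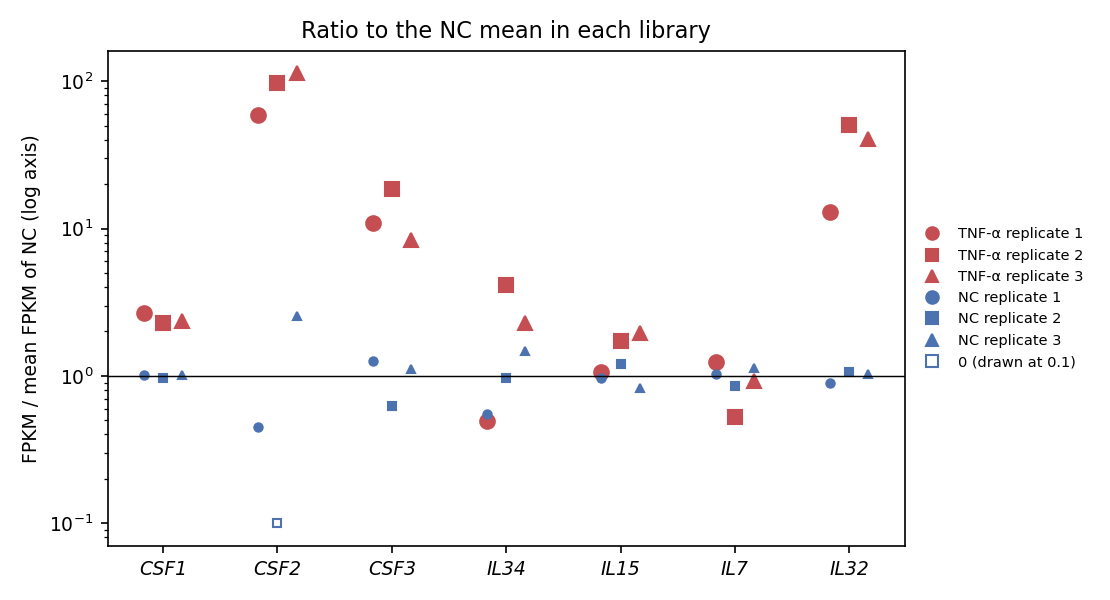
Ratio of each library's FPKM to the mean FPKM of the NC group (log axis) for TNF-α libraries (red) and NC libraries (blue, smaller), with symbols for replicates and 1 value of 0 drawn as an open square at 0.1. TNF-α replicates 2 and 3 were above replicate 1 for CSF2, IL32, IL15 and IL34, and on the FPKM scale the 3 were close for CSF1.

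IL32, on chr16:3065297-3082192 (GRCh38, plus strand), encodes a cytokine first described in activated natural killer and T cells. Its level was 0.638, 0.760 and 0.737 FPKM in NC replicates 1 to 3 and 9.20, 35.8 and 28.6 FPKM in TNF-α replicates 1 to 3. The NC libraries were close to each other and the treated libraries were all far higher but uneven, at 12.9, 50.3 and 40.2 times the NC mean. The mean rose 34.5-fold, a log2 fold change of 3.71 (SE 0.47, adjusted p = 0.0285 by limma), from 74 to 80 NC reads and 949 to 2976 TNF-α reads per library. The lowest treated value was that of replicate 1. With replicates 2 and 3 left out together, which leaves replicate 1 as the only treated library, the log2 fold change was 2.58. The call was lost without NC replicate 1, 2 or 3 (adjusted p = 0.176, 0.188 and 0.205 by limma) and without TNF-α replicate 2 or 3 (0.0718 and 0.169), and when every gene above 0 was fitted (0.0902). An RNA pseudogene on the same strand, RNU1-125P, overlapped 4.02% of the exonic bases of IL32. The nearest protein-coding genes, MMP25 and ZSCAN10, had at most 0.0993 FPKM in any library.

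IL15, on chr4:141636599-141733987 (GRCh38, plus strand), supports natural killer cells and memory T cells. Its level was 0.863, 1.06 and 0.737 FPKM in NC replicates 1 to 3 and 0.938, 1.53 and 1.74 FPKM in TNF-α replicates 1 to 3. TNF-α replicate 1 fell within the NC range, and replicates 2 and 3 were above it. The log2 fold change was 0.34 (SE 0.17, adjusted p = 0.201 by limma, exact permutation p = 0.2), so that IL15 was not called. Without TNF-α replicate 1 the log2 fold change was 0.48 and the adjusted p was 0.00630 by limma, in a fit that called 9630 of the 12136 genes. Its neighbour ZNF330 was not called (log2 fold change 0.24), and INPP4B had at most 0.0436 FPKM in any library.

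IL7, on chr8:78675743-78805523 (GRCh38, minus strand), supports the development and survival of T cells. Its level was 1.04, 0.863 and 1.14 FPKM in NC replicates 1 to 3 and 1.27, 0.535 and 0.935 FPKM in TNF-α replicates 1 to 3. The treated libraries held both the highest and the lowest value. The log2 fold change was -0.09 (SE 0.17, adjusted p = 0.693 by limma, exact permutation p = 0.8), and it was 0.18 after quantile normalization. ZC2HC1A and AC083837.2, on the opposite strand, overlapped 16.3% of the exonic bases of IL7, and whether strand was used in counting is not given in the sources used here, so reads of these genes cannot be told apart there. The adjacent genes were PKIA, which was not called (log2 fold change -0.02), and STMN2, with 0 reads in 5 libraries and 4 reads in all.

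Receptors for these ligands were mostly near 0 in U251 cells. Of 10 receptor genes 3 entered the fit and 1 was higher, where 0.717% of all genes tested were higher. The 3 had a median log2 fold change of 0.23 against 0.04 over all genes tested. IL15RA reached an FPKM of 1 in NC replicates 1 and 3 only. It thus passed the filter with the help of the TNF-α libraries, and this count carries no weight of its own. IL15RA, the chain that presents IL15, was 1.07, 0.881 and 1.14 FPKM in NC replicates 1 to 3 and 2.88, 3.79 and 4.03 FPKM in TNF-α replicates 1 to 3. Each treated library was above each NC library, and the log2 fold change was 1.16 (SE 0.15, adjusted p = 0.0283 by limma). The call was lost without any 1 of NC replicates 1 to 3 (adjusted p = 0.207, 0.228 and 0.201 by limma) or TNF-α replicates 2 and 3 (0.117 and 0.170), with log2 fold changes of 1.09 to 1.20. It was also lost with the GC and length correction (log2 fold change 0.67, adjusted p = 0.0786 by limma), with every gene above 0 fitted (0.101) and on the TPM scale (0.129), where the difference from the median of all genes was 1.51 against 1.12 on the FPKM scale. IL7R, the IL7 receptor chain, had 13.2 ± 0.159 FPKM in NC and 14.2 ± 5.57 FPKM in TNF-α (n = 3 each) and was not called (log2 fold change 0.04). SDC1, a heparan sulfate proteoglycan that binds IL34, had 106 ± 9.13 and 127 ± 29.8 FPKM and was not called either (0.23).

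The other receptor genes were all under the filter for low values. CSF2RB had 0 reads in all 6 libraries, CSF3R had 2 reads in NC replicate 1 and 0 elsewhere, and IL2RB had at most 2 reads in a library. IL2RG had 0, 0 and 1 reads in NC and 3, 9 and 8 reads in TNF-α. CSF2RA, the ligand-binding chain for CSF2, was 0.167 to 0.333 FPKM in NC and 0.544 to 0.553 FPKM in TNF-α, from 21 to 41 and 51 to 68 reads, without overlap but under the filter for low values. CSF1R was 0.181 to 0.332 FPKM in NC and 0.0899 to 0.128 FPKM in TNF-α, also without overlap, and PTPRZ1, a further IL34 receptor, was 0.0233 to 0.335 FPKM over the 6 libraries.

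**Figure D3:**
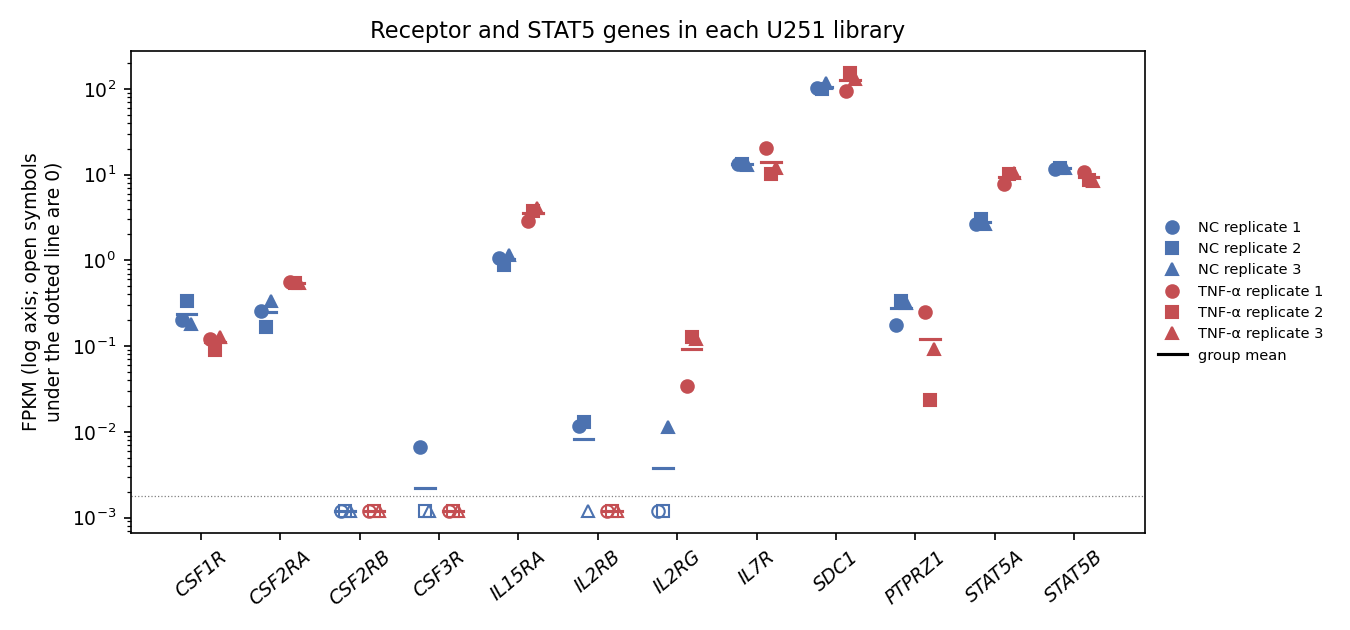
FPKM (log axis) of 10 receptor genes and of STAT5A and STAT5B in each NC library (blue) and TNF-α library (red), with group means as lines and values of 0 as open symbols under the dotted line. IL15RA and STAT5A were higher in all 3 TNF-α libraries, while CSF2RB, CSF3R and IL2RB lay at or near 0.

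Among 9 related ligand genes, KITLG (stem cell factor) alone entered the fit and was not called (4.32 ± 0.503 FPKM in NC and 3.80 ± 1.65 in TNF-α, n = 3 each). IL2, IL9 and IL21 had 0 reads in all libraries, and IL3, IL4 and IL5 had at most 4 reads in any. TSLP, a ligand that uses IL7R, was 0.116 to 0.214 FPKM in NC and 0.0360 to 0.115 FPKM in TNF-α, without overlap, from at most 30 reads. FLT3LG, a growth factor of dendritic cell precursors, was 0.0678 to 0.260 FPKM over the 6 libraries, with overlapping groups.

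Of 12 genes that carry signals from these receptors, 9 entered the fit, 1 was higher and 0 were lower. The median log2 fold change of the 9 was -0.33, and 0.717% of all genes tested were higher. STAT5A, a transcription factor activated by the receptors of CSF2, IL7 and IL15, was 2.63, 3.04 and 2.63 FPKM in NC replicates 1 to 3 and 7.72, 10.3 and 10.3 FPKM in TNF-α replicates 1 to 3. Every treated library was above every NC library, with a log2 fold change of 1.46 (SE 0.15, adjusted p = 0.0146 by limma). Its close relative STAT5B was 11.7 to 12.0 FPKM in NC and 8.43 to 10.7 FPKM in TNF-α and was not called (log2 fold change -0.33, adjusted p = 0.195 by limma). The STAT5A call was lost without any 1 of NC replicates 1 to 3 (adjusted p = 0.138, 0.129 and 0.153 by limma) or TNF-α replicates 2 and 3 (0.0612 and 0.109), with log2 fold changes of 1.40 to 1.51. On the TPM scale it was lost as well (0.0731), the difference from the median of all genes being 1.60 against 1.42 on the FPKM scale. SHC1, GRB2 and STAT3, the most abundant of the 12, had log2 fold changes of -0.20, 0.16 and 0.10 and were not called. CISH and PIM1, genes that STAT5 switches on in blood cells, were not called, and STAT5 activity was not measured. CISH was under the filter for low values at 0.287 to 0.459 FPKM with overlapping groups. PIM1 was 9.01 ± 0.561 FPKM in NC and 5.97 ± 0.683 FPKM in TNF-α (n = 3 each). Its TNF-α values (5.19 to 6.44 FPKM) all lay under its NC values (8.37 to 9.38 FPKM). The log2 fold change of PIM1 was -0.53 (adjusted p = 0.164 by limma).

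A list of 9 genes covered factors that act on AU-rich or stem-loop mRNAs or shed membrane-bound CSF1. All entered the fit, 1 was higher and 0 were lower, where 0.717% of all genes tested were higher. Their median log2 fold change was -0.0039. ZC3H12A, an RNase that cuts cytokine mRNAs, was 3.52, 3.44 and 4.21 FPKM in NC replicates 1 to 3 and 10.1, 11.0 and 11.8 FPKM in TNF-α replicates 1 to 3. The groups were clearly apart, with a log2 fold change of 1.34 (SE 0.13, adjusted p = 0.0116 by limma). The call was lost without any 1 of NC replicates 1 to 3 (adjusted p = 0.137, 0.139 and 0.0976 by limma) or TNF-α replicates 2 and 3 (0.0575 and 0.109), with log2 fold changes of 1.29 to 1.41. It was also lost with the GC and length correction (log2 fold change 0.72, adjusted p = 0.147 by limma) and on the TPM scale (0.173), where the difference from the median of all genes was 1.42. KHSRP and HNRNPD, RNA-binding proteins of AU-rich elements and with ELAVL1 the most abundant of the 9, had log2 fold changes of -0.40 and 0.34 and were not called. ZFP36, which binds AU-rich elements and speeds decay, was 5.36 ± 0.266 and 6.37 ± 1.36 FPKM, and ELAVL1, which binds them and stabilises mRNAs, was 32.5 ± 0.796 and 32.4 ± 2.00 FPKM (n = 3 each), neither called. ADAM17, the protease that sheds CSF1, was 5.13 to 5.78 FPKM in NC, 6.31 FPKM in TNF-α replicate 1 and 1.26 and 1.45 FPKM in TNF-α replicates 2 and 3, and was not called (adjusted p = 0.198 by limma). The treated libraries fell on both sides of the NC range in this gene and also, among others, in EGFR, SOX9, JAK1 and JAK2.

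Markers of cells that make or use these cytokines in tissue were checked in the same libraries. Of 8 myeloid markers 0 entered the fit, PTPRC and TYROBP had 0 reads in every library, and the summed level of the list was 0.896 to 1.21 FPKM in NC and 0.654 to 1.75 FPKM in TNF-α, most of it CD14. The lymphoid markers CD3E, CD3D, CD2 and MS4A1 had 0 reads in every library, and NKG7 was at most 0.0825 FPKM. The 4 endothelial markers summed to 0.160 to 0.199 FPKM in NC and 0.226 to 0.360 FPKM in TNF-α. Of 10 glial and glioma markers 8 entered the fit, 0 were higher and 1 was lower, where 36 of 12136 genes tested were lower. The median log2 fold change of the 8 was -0.48, and S100B and OLIG2 were at or near 0. The intermediate filament genes VIM and NES had log2 fold changes of 1.05 and 0.36, CD44 of 0.03, and SOX2, SOX9, EGFR and FABP7 of -0.84, -0.51, -0.80 and -0.46, none called. VIM was above (325 to 362 FPKM in NC, 434 to 974 in TNF-α) and SOX2 and FABP7 were below the NC libraries in every treated library. GFAP, the astrocyte intermediate filament, was lower after TNF-α (8.24 ± 1.19 to 2.19 ± 0.537 FPKM, n = 3 each; log2 fold change -1.54, adjusted p = 0.0210 by limma). The GFAP call was lost without any 1 of NC replicates 1 to 3 (adjusted p = 0.159, 0.137 and 0.166 by limma) or TNF-α replicates 2 and 3 (0.0575 and 0.126), with log2 fold changes of -1.64 to -1.45.

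The genes whose pattern over the 6 libraries was most like each member were named by the smallest root mean square difference of log2(FPKM + 1) from the NC mean. For CSF1 these were GFPT2 (0.0801), NUAK2 (0.0972) and DRAM1 (0.112). For CSF2 they were IL4I1 (0.172), RELB (0.262) and TRAF1 (0.295), and for IL32 they were RELB (0.243), IL4I1 (0.252) and CSF2 itself (0.374). CSF2 and IL32 thus shared 2 of their 3 nearest genes. The measure depends on the size of the change, which was close for both (log2 fold changes of 3.66 and 3.71). Sharing these genes therefore carries little weight of its own. IL15 lay nearest to CCDC59 (0.0406), SPRED3 (0.0426) and CBX3 (0.0431), and IL7 nearest to ZNF84 (0.0313), POLG (0.0425) and ELL (0.0539), none of which was called. All points come from the same 6 libraries, so this likeness also holds what the libraries share.

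**Figure D4:**
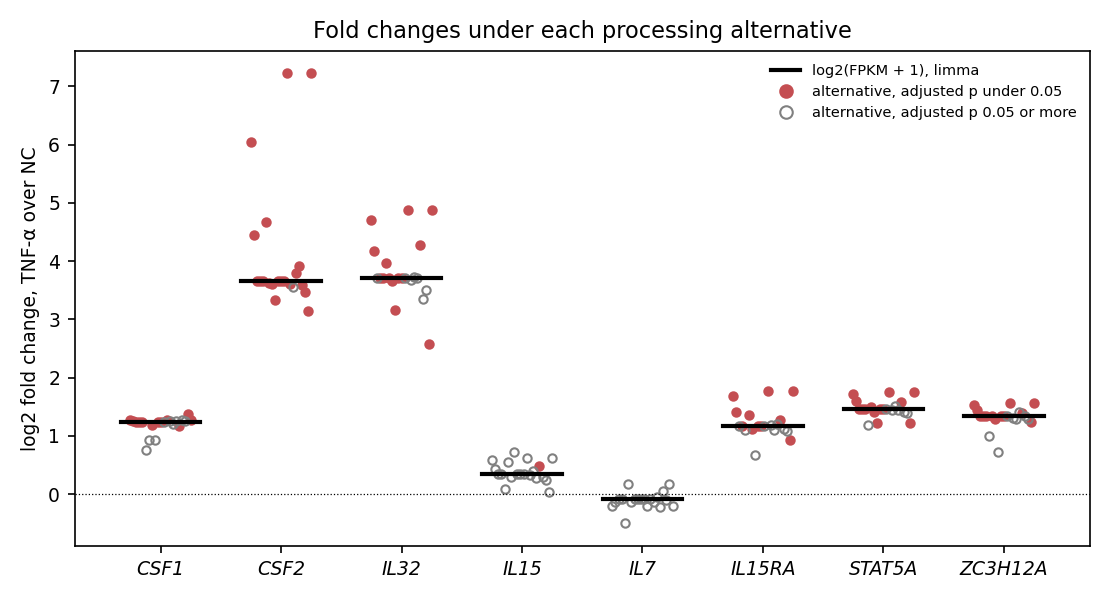
Log2 fold change (TNF-α over NC) of 5 cytokine genes and of IL15RA, STAT5A and ZC3H12A, with the limma value on log2(FPKM + 1) as a line and each processing alternative as a point, filled where the adjusted p was under 0.05. CSF1, CSF2 and IL32 were above 0 under every alternative, and IL7 lay on both sides of 0.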

How the data were processed

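The authors deposited gene-level FPKM from poly(A) libraries, without pooling or log transformation. The submitters' processing notes name HISAT2 2.0.5, StringTie 1.3.3b and featureCounts 1.5.0. The identifiers, positions and lengths of all 58735 genes equalled those of GENCODE 29 on GRCh38. Multiplying FPKM by gene length gave whole steps in 100% of values of every library (tolerance 0.01), and these steps are the reads used here. Intervals from such reads would cover counting error only. The table held 6 further columns that match no sample described here, and these were not used. The library total inside the FPKM was 0.925 to 0.959 of the reads in genes in 4 libraries and 0.693 and 0.759 in TNF-α replicates 2 and 3.

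Log2(FPKM + 1) was fitted with limma 3.58.1 in R 4.3.3 (eBayes with trend, two-sided), and p-values were adjusted by Benjamini-Hochberg over 12136 genes with FPKM of at least 1 in at least 3 libraries. A called gene had an adjusted p under 0.05, which gave 87 genes higher and 36 lower. Single genes were also tested by an exact two-sided permutation of the libraries. The fit was tested on simulated data. Each member was named. For the receptor, ligand, signalling and decay lists the called genes and up to 3 of the highest level were added, with the adjacent protein-coding genes and the 3 genes of most similar pattern; a few further list genes were named after their values were seen. The members and lists were chosen with earlier results of these data known. Sequences were read from RefSeq (GRCh38.p14) and GENCODE 29. A lymphoid marker of the lists is not reported here.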

Additional observations from a re-analysis of the deposited data

How the results depend on the processing

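Of 21 alternatives, CSF1 kept its direction in 21 (log2 fold change 0.76 to 1.37) and its call in 12, CSF2 in 21 (3.14 to 7.22) and 20, and IL32 in 21 (2.58 to 4.88) and 14. The kept calls include the fit without TNF-α replicate 1, where 9630 of 12136 genes were called, so a call kept there carries little weight. They also include the fit with a lone TNF-α library, whose p-value measures no spread among treated libraries. The number of genes called, 123, became 58 with every gene above 0, 79 with FPKM of at least 5, 58 with TPM, 185 with quantile normalization and 247 with a GC and length correction. It was 732 with TNF-α replicates 2 and 3 left out together, where the lone TNF-α library was assumed to vary like the NC libraries. Leaving out 1 library gave 10 to 9630 genes and 0 to 4 members called, against 3. The GC and length and the quantile settings lost CSF1 (adjusted p = 0.0809 and 0.126 by limma), and the setting with every gene above 0 lost IL32 (0.0902). That setting also lost GFAP (0.0654). Leaving out 1 library moved IL7 between -0.22 and 0.060 on the log2 scale. IL7 turned to 0.18 with quantile normalization and to 0.17 with TNF-α replicates 2 and 3 left out together. A replicate block, with the replicate number as a term, left 24 genes and 1 member, CSF2 (adjusted p = 0.0164 by limma), called, and CSF1, IL32, IL15RA, STAT5A, ZC3H12A and GFAP had adjusted p of 0.148, 0.0600, 0.144, 0.0956, 0.105 and 0.110. Deviations of same-numbered libraries from their group means correlated at -0.0144, -0.178 and 0.124. With 3 libraries per group, such correlations cannot decide whether the libraries were paired. The cause of these changes was not tested. Depth limits CSF3 and IL34, with 4 to 95 reads per library, and the NC level of CSF2.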
